A study of Mus musculus with 40 samples.

Results

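*Serpina9*, *Rem2*, *Gpx6* and *Tnmd* are 4 of the 24060 genes in the count table. They were chosen by the measured rise of their RNA after immunoprecipitation (IP) of neuronal ribosomes from mouse striatum, over the tissue lysate that served as input, so that rise is a description here and carries no test. The study isolated RNA by RiboTag, in which a haemagglutinin-tagged ribosomal protein (RPL22) is delivered by an AAV under a cell-type promoter and tagged ribosomes are pulled from the lysate with the RNA they carry. There were 40 libraries in 10 groups of 4.

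The neuron cohort, titled Syn, gave 4 IP and 4 input libraries from WT C57/BL6NTac mice, and the study's methods name the hSYN1 promoter, which drives expression in neurons of all types, with injection into the dorsal striatum at 6 weeks of age. The cohort labelled Control was also of C57/BL6NTac mice, with 4 IP and 4 input libraries from the same 4 animals. Its labels do not name the AAV, and it was taken as the astrocyte RiboTag (GfaABC1D promoter, injected at 6 weeks) from the methods. The SAPAP3 cohort held IP and input libraries of 4 WT mice (C57/BL6J) and 4 SAPAP3 KO mice (C57/BL6J-Dlgap3 KO, which lack the postsynaptic scaffold gene *Dlgap3* and serve as a model of obsessive-compulsive disorder). KO mice were injected at 4.5 months, and the sources used here name neither the injection age of the WT mice nor the cell type of the RiboTag in this cohort. Whole-striatum RNA of both genotypes (bulk, 4 WT and 4 KO libraries, both labelled C57/BL6NTac) completed the set, and 1 animal number was given to both a WT and a KO bulk library. Collection ages and sexes were not in the labels.

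The 4 genes belong to unrelated families. *Serpina9* encodes a secreted clade A serpin, a family of serine protease inhibitors that trap their target protease in an irreversible complex, and in humans it is best known from germinal centre B cells. *Rem2* encodes a small GTPase of the RGK group (Rad, Gem/Kir), which binds calcium channel β subunits and inhibits voltage-gated calcium channels, and which is induced by neuronal activity. *Gpx6* encodes a glutathione peroxidase, an enzyme that reduces peroxides with glutathione, and was first described in the olfactory epithelium. *Tnmd* encodes tenomodulin, a type II membrane glycoprotein with a BRICHOS domain that marks tendons and ligaments. Most striatal neurons are GABAergic medium spiny neurons (MSNs), and a pan-neuronal promoter also reaches the cholinergic and GABAergic interneurons.

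In GRCm38.p6, the assembly of mm10 used by the authors, *Serpina9* lies on the minus strand of chromosome 12 (103996615 to 104013652), *Rem2* on the plus strand of chromosome 14 (54476100 to 54480434), *Gpx6* on the plus strand of chromosome 13 (21295465 to 21319625) and *Tnmd* on the plus strand of the X chromosome (133851008 to 133865577). Their merged exons span 1838, 1887, 1546 and 1427 bases. No transcript of another gene matched any of the 4 at 95% identity over 50% of its length. The 1 overlapping annotation, a pseudogene on the strand opposite *Gpx6*, touches no *Gpx6* exon and is absent from the table. The span of *Gpx6* opens with a predicted transcript, and its RefSeq Select transcript starts further in, at 21312203. The 250 bases before the RefSeq Select start of *Rem2*, *Gpx6* and *Tnmd*, from RefSeq (GRCm38.p6), are given. *Serpina9* had no entry in the promoter set used. Over the group means the levels of *Rem2* and *Gpx6* correlated at 0.79, with *Gpx6* ranked only 1266 of 15667 genes, and those of *Tnmd* ran the other way. Capitals mark the matches, on either strand, to the motifs searched, which were the CRE (TGACGTCA), its short form (TGACG), AP-1 (TGANTCA), an E-box (CACGTG), a GC box (GGGCGG) and a TATA box (TATAAA).
Rem2, chr14:54475850-54476099, plus strand: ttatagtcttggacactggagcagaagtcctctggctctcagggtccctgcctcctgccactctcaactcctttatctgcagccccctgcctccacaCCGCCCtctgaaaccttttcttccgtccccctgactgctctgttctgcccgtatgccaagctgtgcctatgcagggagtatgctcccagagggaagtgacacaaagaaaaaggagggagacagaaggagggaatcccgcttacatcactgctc
Gpx6, chr13:21311953-21312202, plus strand: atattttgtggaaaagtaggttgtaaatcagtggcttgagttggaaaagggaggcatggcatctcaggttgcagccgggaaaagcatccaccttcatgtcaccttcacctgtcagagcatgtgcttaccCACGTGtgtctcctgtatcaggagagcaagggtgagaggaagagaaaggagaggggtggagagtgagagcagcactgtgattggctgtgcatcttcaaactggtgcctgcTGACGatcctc
Tnmd, chrX:133850758-133851007, plus strand: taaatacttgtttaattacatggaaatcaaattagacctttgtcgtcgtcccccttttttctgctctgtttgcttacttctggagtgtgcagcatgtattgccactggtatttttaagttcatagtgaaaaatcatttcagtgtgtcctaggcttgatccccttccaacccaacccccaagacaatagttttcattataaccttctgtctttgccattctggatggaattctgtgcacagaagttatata

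*Rem2* had 1 GC box, 153 bases before the start, a motif present in 32.7% of 32851 mouse promoters of this length. *Gpx6* had 1 E-box at 121 bases before its RefSeq Select start, present in 6.02% of promoters, and 1 short CRE match at 11 bases, present in 17.8%, and both lie within the genomic span of the longer predicted transcript. The *Tnmd* stretch held none of the 6 motifs. A match is a description of these letters only.

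Library depth ran from 23438112 to 84109800 counted reads. The Syn IP was the deepest group (74406514 to 84109800), and the SAPAP3 WT and Control inputs were among the shallowest. *Rpl22*, the tagged gene, was higher in IP than in input in every pair of all 4 cohorts, by 2.78-fold to 3.91-fold in Syn and 5.67-fold to 6.73-fold in Control. *Dlgap3* averaged 180 CPM (counts scaled to the library total) in KO input and 421 CPM in WT input of the SAPAP3 cohort. All 10 astrocyte markers were called higher (adjusted p below 0.05 and a log2 fold change, log2(FC), above 1) in the Control IP and in both SAPAP3 IPs, where 13.4%, 10.9% in WT and 12.3% in KO of all genes tested were called higher. Their median log2(FC) was 3.02, 2.30 in WT and 2.39 in KO. The 10 pan-neuronal markers had a median log2(FC) of 0.40 in the Syn IP and the 8 MSN markers used here 0.94, against -0.63 for astrocyte, -1.79 for oligodendrocyte, -3.60 for endothelial and -4.44 for microglial markers. *Xist*, the transcript of the inactive X chromosome, was above 1 CPM in all 8 Syn libraries and in 0 of 8 Control libraries, so that sex, AAV and cohort cannot be told apart between these cohorts.

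*Serpina9*, the serpin of this set, was higher in every Syn IP library than in every Syn input library. In the input it was at 31.8, 39.3, 27.6 and 34.1 CPM in replicates 1 to 4, and in the Syn IP at 57.4, 73.8, 56.985 and 66.5 CPM. Replicate 2 was the highest in both fractions. The ratio of IP to the input of the same number ran from 1.80 to 2.07, and the fitted log2(FC) was 1.14 ± 0.11 (SE, edgeR, n = 4 and 4). *Rem2*, the calcium channel inhibitor, was at 31.8, 40.0, 30.3 and 37.4 CPM in input and 59.2, 74.4, 61.0 and 70.3 CPM in IP. Its ratios ran from 1.86 to 2.01, a narrow span, and its log2(FC) was 1.13 ± 0.10 (SE). Its groups were also separate, and replicate 2 was again the highest in both fractions.

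*Gpx6*, the peroxidase, was at 2.35, 3.29, 1.53 and 2.10 CPM in the Syn input and 5.03, 7.34, 4.92 and 4.88 CPM in the IP. The groups did not overlap, and the ratio was 2.15 to 3.22, with the largest ratio in replicate 3, where the input was lowest. The log2(FC) was 1.46 ± 0.22 (SE). *Tnmd*, the tendon gene, rested on few reads, at 0.782, 0.648, 0.549 and 0.490 CPM in input (25 to 41 reads) and 1.75, 1.38, 1.08 and 1.33 CPM in IP (91 to 139 reads). Its groups did not overlap either, with ratios of 1.97 to 2.72 and a log2(FC) of 1.37 ± 0.20 (SE).

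**Figure D1:**
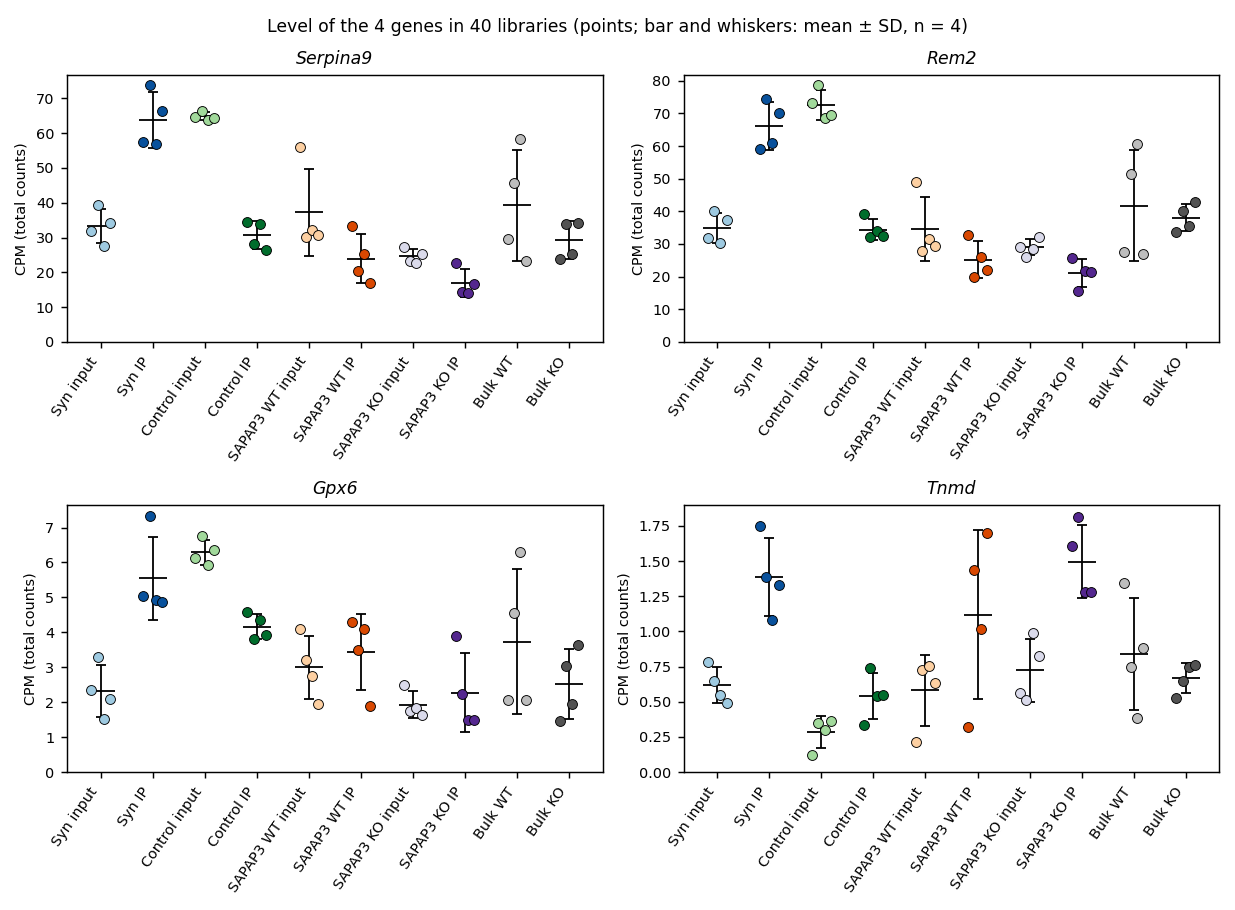
CPM of each gene (y axis, linear, from 0) in the 40 libraries, by group, with points for libraries and bars for the mean ± SD (n = 4). With counts scaled to library totals, *Serpina9* and *Rem2* peak in the Control input and Syn IP, at means of 63.7 to 72.6 CPM. *Tnmd* is lowest in the Control input at 0.284 CPM.

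Calls in the IP comparisons needed a log2(FC) beyond 1 in either direction together with a Benjamini-Hochberg adjusted p below 0.05. By that rule 68 of 16198 genes tested (0.42%) were higher in the Syn IP, and 2567 (15.8%) were lower. The 4 genes are among the 68 because they were chosen so, and they were not its top. *Gpx6* ranked 7 and *Tnmd* 9 by log2(FC), and *Serpina9* ranked 25 and *Rem2* 29, behind *Rpl22* itself at 1.85. The genes next in rank to *Gpx6* and *Tnmd* included *H2-Q2* and *Irgc1*. Those next to *Serpina9* and *Rem2* were *Arhgap40*, *Slc10a4*, *Slc17a8* and *Marveld3*, among which *Slc10a4* and *Slc17a8* encode vesicular transporters known from cholinergic neurons. The genes just outside the limit of 1 included *Ido1* (0.997) and *Syt2* (0.994), and the genes of the 4 nearest to it on the inside were *Rem2* and *Serpina9*. The values of this pair and of *Tnmd* lay within 2 SE of the limit.

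**Figure D2:**
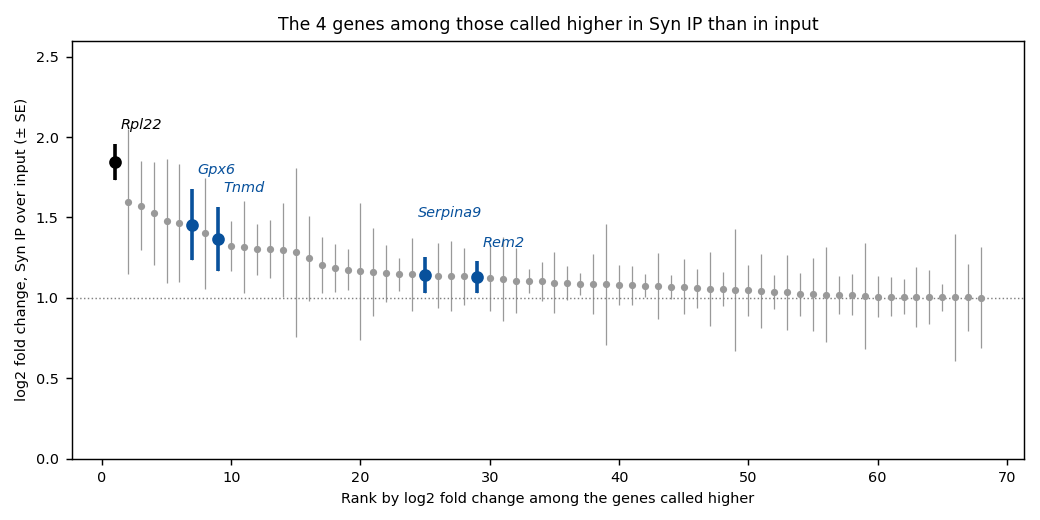
log2(FC) of Syn IP over input (y axis, ± SE) for the 68 genes called higher, by rank (x axis). *Gpx6* (7) and *Tnmd* (9) sit near the steep start and *Serpina9* (25) and *Rem2* (29) on the plateau near 1.1, with *Rpl22* first at 1.85.

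Per kilobase of exon the genes fell into 2 tiers. In the Syn IP the mean FPKM (computed here from the counts and merged exon lengths) was 34.6 ± 4.39 for *Serpina9* and 35.1 ± 3.87 for *Rem2*, but 3.59 ± 0.776 for *Gpx6* and 0.972 ± 0.193 for *Tnmd* (SD, n = 4). *Serpina9* and *Rem2* had a mean FPKM above 5, the floor used in the study, in 10 of 10 groups, and *Gpx6* and *Tnmd* in 0 of 10.

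Across the 10 groups, with counts scaled to library totals, the highest mean of *Serpina9*, *Rem2* and *Gpx6* was not in the neuron IP but in the Control input. *Serpina9* stood there at 64.8, 66.5, 63.9 and 64.4 CPM, a mean of 64.9 ± 1.12 CPM against 63.7 ± 8.06 CPM in the Syn IP (SD, n = 4). For *Rem2* the means were 72.6 ± 4.57 and 66.2 ± 7.30 CPM, and for *Gpx6* 6.29 ± 0.36 and 5.54 ± 1.20 CPM. In each of the 3 genes the libraries of these groups overlapped. With library sizes scaled by TMM over all 40 libraries this order turned in each. Syn IP and Control input were then at 69.2 and 58.4 CPM for *Serpina9* and 72.0 and 65.3 CPM for *Rem2*. For *Gpx6* they were at 6.03 and 5.66 CPM. The *Serpina9* libraries then did not overlap, at 62.1 to 79.6 CPM in the Syn IP and 57.1 to 59.8 CPM in the Control input. The Control input and Syn input are both lysate of WT striatum of the same strain, and *Serpina9* averaged 33.2 ± 4.88 CPM in the latter, with no overlap between the 2 inputs. Summed MSN markers differed between them as well, at 7126 to 7387 CPM in the Control input and 3360 to 4687 CPM in the Syn input, and their part in the level of *Serpina9* was not tested. In bulk samples such as these, fewer cells of a type and less RNA per cell cannot be told apart.

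With counts again scaled to library totals, the lowest group for *Serpina9* and *Rem2* was the SAPAP3 KO IP, with means of 16.9 ± 4.05 and 21.1 ± 4.23 CPM. Next above it came the SAPAP3 WT IP, and the ranges of neighbouring groups overlapped all along the order of both genes. *Gpx6* was lowest in the SAPAP3 KO input at 1.92 ± 0.388 CPM, and its order had 1 break, between the Syn IP and the Control IP, where ranges were separate. *Tnmd* had a different order. It was highest in the SAPAP3 KO IP (1.50 ± 0.261 CPM), then in the Syn IP (1.39 ± 0.275 CPM) and the SAPAP3 WT IP (1.12 ± 0.602 CPM), and lowest in the Control input (0.284 ± 0.113 CPM), with overlap between all neighbours.

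The Control cohort asks whether the genes were also higher on ribosomes captured with another RiboTag, in libraries that played no part in their choice. *Serpina9*, *Rem2* and *Gpx6* were lower in the IP than in its input, and *Tnmd* was higher. *Serpina9* in the Control IP was at 34.5, 28.0, 33.9 and 26.5 CPM, each below all 4 inputs. Its log2(FC) was -0.86 ± 0.08 (SE, adjusted p = 1.3e-06, edgeR quasi-likelihood test). *Rem2* went from 73.2, 78.8, 68.7 and 69.6 CPM in input to 39.1, 32.1, 33.9 and 32.4 CPM in IP, with a log2(FC) of -0.86 ± 0.07 (SE, adjusted p = 3.4e-07). Both passed the p threshold and stayed inside the fold limit, so neither was called, beside 13.5% of 15476 genes called lower and 26.9% called in either direction.

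*Gpx6* in the Control cohort was at 6.11, 6.76, 5.93 and 6.36 CPM in input and 4.58, 3.80, 4.36 and 3.93 CPM in IP. The groups were separate but the step was smaller than for the first pair, with a log2(FC) of -0.37 ± 0.09 (SE, adjusted p = 0.0032). *Tnmd* was at 0.121, 0.352, 0.300 and 0.364 CPM in input (3 to 10 reads) and 0.336, 0.738, 0.537 and 0.545 CPM in IP (16 to 34 reads). IP exceeded its own input in 4 of 4 pairs, although the lowest IP library lay within the range of the inputs. *Tnmd* was the 1 gene of the 4 called here, with a log2(FC) of 1.12 ± 0.35 (SE, adjusted p = 0.011), beside 13.4% of genes called higher. Without Control input replicate 1 or without Control IP replicate 2 the log2(FC) was 0.89 or 0.94, under the limit.

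These signs are relative to the bulk of the genes, since TMM scaling holds their median near 0. With libraries scaled to 75 ribosomal protein genes, the median gene of the Control comparison moved to 1.16, and *Serpina9*, *Rem2* and *Gpx6* turned positive at 0.33, 0.33 and 0.81, still below that median. In Syn the same scaling put the median at 0.44 and the 4 genes at 1.58 to 1.91.

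**Figure D3:**
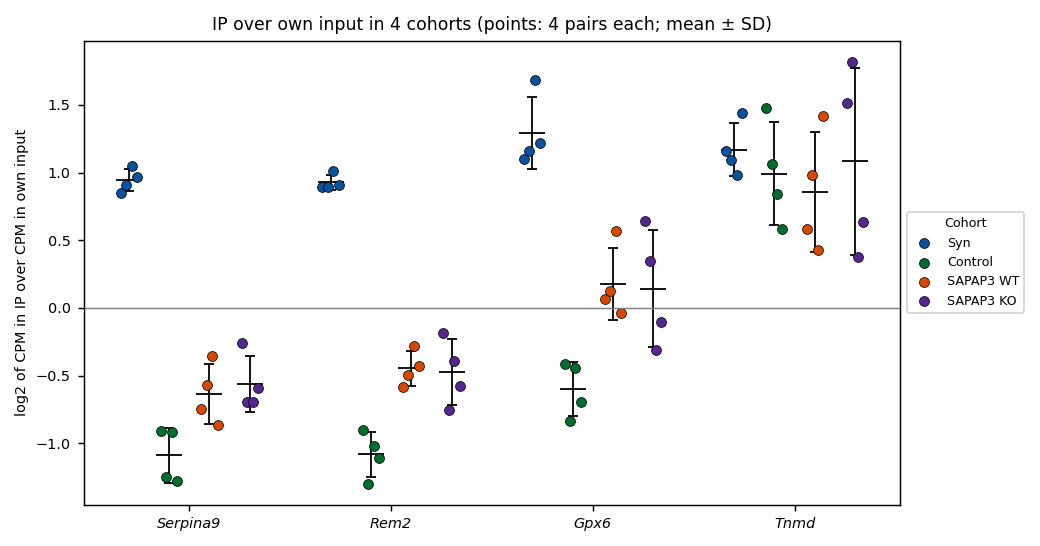
log2 ratio of CPM in IP to CPM in its own input (y axis) for 4 pairs in each of 4 cohorts, with mean ± SD. In Syn the pairs follow the number in the sample title. Under library total scaling *Serpina9* and *Rem2* are above 0 in all Syn pairs and below 0 in the 12 others, *Tnmd* is above 0 in all 16, and *Gpx6* straddles 0 in the SAPAP3 cohort; ribosomal protein scaling turns the fitted mean signs of *Serpina9* and *Rem2* outside Syn.

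In the SAPAP3 cohort *Serpina9* and *Rem2* were again below, and *Tnmd* above, their own input in every pair. In WT mice *Serpina9* was at 55.9, 30.2, 32.3 and 30.7 CPM in input and 33.3, 20.4, 25.2 and 16.9 CPM in IP. Each IP was below its own input, at 0.550 to 0.781 of it, but the groups overlapped because mouse 1 was high in both fractions. The log2(FC) was -0.46 ± 0.25 (SE, adjusted p = 0.12). With the mouse as a block it was -0.46 (adjusted p = 0.0011), and without both libraries of mouse 1 it was -0.37 (adjusted p = 0.045). Leaving out only the input of mouse 1 gave -0.21 and leaving out only its IP gave -0.66. In KO mice *Serpina9* was at 27.2, 23.2, 22.6 and 25.2 CPM in input and 22.7, 14.4, 13.9 and 16.7 CPM in IP, with a log2(FC) of -0.33 ± 0.14 (SE, adjusted p = 0.0502, and 0.0028 with the block).

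*Rem2* had the same signs. In WT mice it was at 48.9, 28.0, 31.7 and 29.5 CPM in input and 32.7, 19.8, 26.1 and 21.9 CPM in IP. IP was at 0.668 to 0.825 of its own input, and the log2(FC) was -0.28 ± 0.20 (SE, adjusted p = 0.23, and 0.0060 with the block). Without the input of mouse 1 it was -0.071, and without its IP it was -0.43. In KO mice *Rem2* was at 29.2, 26.0, 28.5 and 32.1 CPM in input and 25.7, 15.5, 21.7 and 21.5 CPM in IP, groups that did not overlap. The log2(FC) was -0.25 ± 0.13 (SE, adjusted p = 0.097, and 0.018 with the block). With ribosomal protein scaling, the log2(FC) of both genes was positive in both genotypes (0.26 to 0.45), where the median gene was at 0.68 in WT and 0.60 in KO.

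*Gpx6* was not called in either genotype. In WT mice it was at 4.10, 3.20, 2.76 and 1.94 CPM in input and 4.28, 3.49, 4.09 and 1.89 CPM in IP, higher in 3 of 4 pairs. In KO mice it was at 2.49, 1.75, 1.83 and 1.62 CPM in input and 3.88, 2.23, 1.48 and 1.50 CPM in IP, higher in 2 of 4 pairs. The log2(FC) was 0.37 ± 0.29 in WT (SE, adjusted p = 0.27) and 0.44 ± 0.31 in KO (SE, adjusted p = 0.21). Leaving out 1 library moved it from 0.21 to 0.57 in WT and from 0.067, without the IP of KO mouse 1, to 0.61 in KO. With ribosomal protein scaling *Gpx6* was called higher in both, at 1.09 in WT (adjusted p = 0.0022) and 1.04 in KO (adjusted p = 0.0076), above the median genes given before. The same scaling called 4784 of 15587 genes higher in WT and 4191 of 15583 in KO.

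*Tnmd* was again higher in the IP in every pair. In WT mice it was at 0.213, 0.727, 0.753 and 0.635 CPM in input (5 to 24 reads) and 0.320, 1.44, 1.02 and 1.70 CPM in IP (15 to 81 reads). Mouse 1, the mouse with high *Serpina9*, was the lowest in both fractions, and the groups overlapped through it. The log2(FC) of 1.08 ± 0.51 (SE, adjusted p = 0.083) was not called, whereas it was called with the block (1.08, adjusted p = 0.0036), without both libraries of mouse 1 (1.18, adjusted p = 0.0051) and without its IP library alone (1.39, adjusted p = 0.0098). The background was 10.9% of 15587 genes called higher and 12.1% lower. In KO mice *Tnmd* was at 0.564, 0.515, 0.990 and 0.828 CPM in input and 1.61, 1.82, 1.28 and 1.28 CPM in IP, with no overlap. It was called, with a log2(FC) of 1.24 ± 0.24 (SE, adjusted p = 0.00085), beside 12.3% of 15583 genes called higher and 11.5% lower. *Xist* was above 1 CPM in 1 of 4 WT and 2 of 4 KO mice of this cohort, and the part of sex in the level of the X-linked *Tnmd* was not tested.

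Within groups the levels of *Serpina9* and *Rem2* followed the MSN markers. The 8 MSN markers used here (*Drd2*, *Adora2a*, *Penk*, *Tac1*, *Pdyn*, *Ppp1r1b*, *Pde10a* and *Rgs9*) summed to 7249 CPM in the input of SAPAP3 WT mouse 1 and to 3951 to 4472 CPM in the other 3 WT inputs. In the bulk WT libraries they summed to 4094, 5993, 7791 and 3601 CPM, where *Serpina9* stood at 29.6, 45.8, 58.3 and 23.2 CPM and *Rem2* at 27.6, 51.4, 60.8 and 27.1 CPM. Over 40 libraries the Pearson correlation of log2 levels with the summed markers was 0.94 for *Serpina9* and 0.94 for *Rem2*, 0.69 for *Gpx6* and -0.51 for *Tnmd*. With each group's mean removed it was 0.94, 0.90, 0.79 and -0.67. With the pan-neuronal sum the values after removing group means were -0.59, -0.59, -0.48 and 0.42, and with the astrocyte sum -0.68, -0.72, -0.45 and 0.51. The points share library totals and, in the IP cohorts, animals, and the part of the MSN share of the dissected tissue in these levels was not tested.

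**Figure D4:**
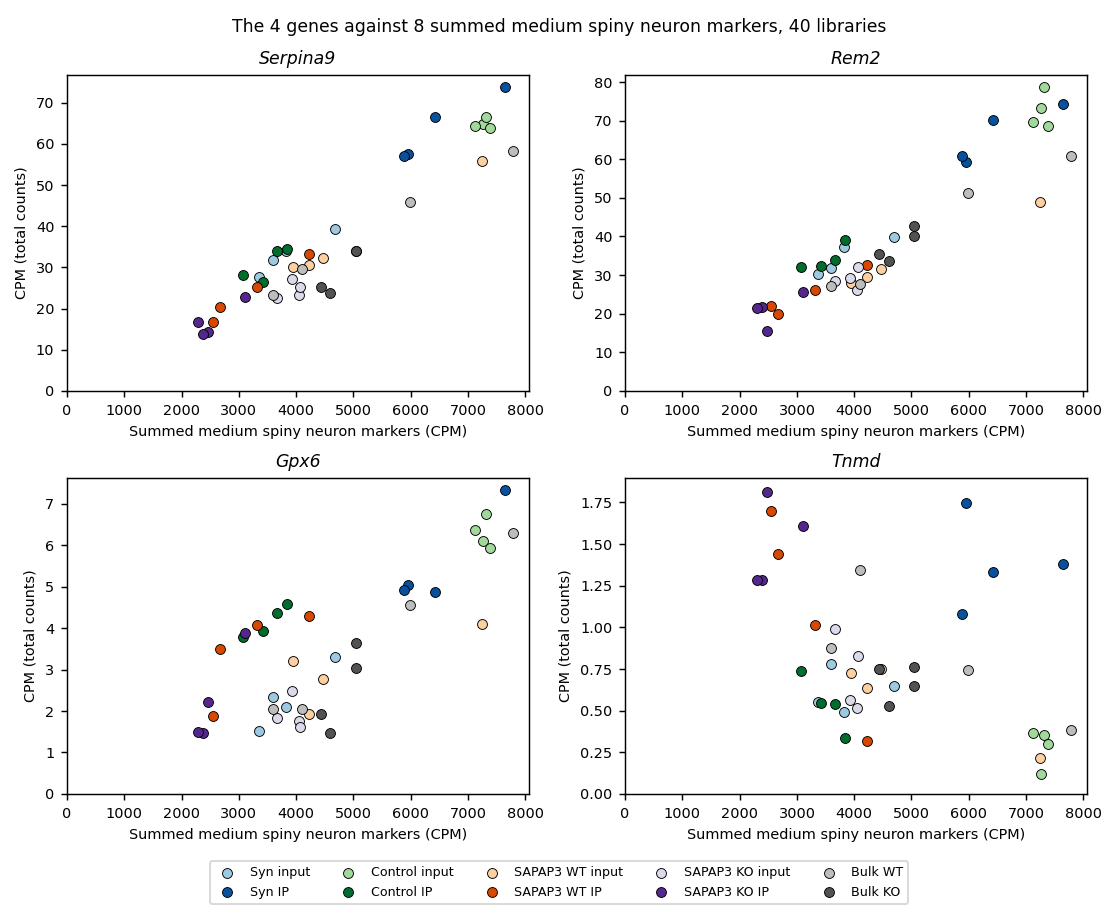
CPM of each gene (y axes) against the summed CPM of 8 MSN markers (x axes) in 40 libraries coloured by group. The Syn libraries, whose contrast chose the genes, are among them. *Serpina9* and *Rem2* rise along a common line through all groups (r = 0.94 each), *Gpx6* is looser (0.69), and *Tnmd* runs the other way (-0.51).

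The MSN markers, like *Serpina9* and *Rem2*, had negative log2(FC) in the tested IPs. In the Control IP 3 of 8 were called lower (median log2(FC) -0.97, range -1.45 to -0.70), beside 13.5% of all genes. In the SAPAP3 cohort 0 of 8 were called, beside 12.1% of genes called lower in WT and 11.5% in KO, with medians of -0.57 in WT and -0.55 in KO. In the Syn IP, the contrast that chose the 4 genes, the 8 MSN markers ran from 0.51 to 1.08 (median 0.94). Of them 3 were called higher there, beside 0.42% of all genes. *Ppp1r1b*, which encodes DARPP-32 and is among these 3, was at 1.01 there and at -0.86 in the Control IP. Of 10 interneuron markers, 8 were called higher in the Control IP, 7 in the SAPAP3 WT IP and 4 in the KO IP, where the shares of all genes were 13.4%, 10.9% and 12.3%. In the Syn IP 2 were called higher and 1 lower, beside 0.42% and 15.8%. Of the B cell list, which bears on *Serpina9* by its human expression, all 3 genes tested in Syn were called lower there, as were 15.8% of all genes. The B cell genes summed to 1.9 to 4.1 CPM in the Syn input and 0.1 to 0.2 CPM in the Syn IP. The tendon and fibroblast list, which bears on *Tnmd*, summed to 55.6 to 69.9 CPM in the Syn input and 19.2 to 23.1 CPM in the Syn IP. In the other cohorts the mean of that sum was higher in the IP. It went from 33.3 to 40.1 CPM in the Control input to 64.5 to 112 CPM in the Control IP, and from means of 48.0 to 67.4 CPM in SAPAP3 WT and 45.6 to 75.3 CPM in KO. The largest rise within that list was of *Thbs4*. Its mean went from 8.31 to 66.2 CPM in Control, 10.3 to 52.7 CPM in SAPAP3 WT and 9.54 to 56.5 CPM in KO. The median log2(FC) of the 8 list genes tested was negative in these IPs, at -0.53, -1.16 and -1.31 in that order.

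The genes most alike in pattern over the 10 group means were sought among 15667 genes by Pearson correlation of log2(CPM + 0.1). For *Serpina9* they were *Pde1b* (0.984), *Asic4* (0.981), *Dclk3* (0.981), *Sec14l1* (0.977) and *Cacna2d3* (0.977). For *Rem2* they were *Asic4* (0.987), *Dclk3* (0.983), *Psmc1* (0.981), *Chrm4* (0.981) and *Pde1b* (0.979). *Asic4*, *Dclk3* and *Pde1b* stood in both sets, and *Serpina9* and *Rem2* themselves correlated at 0.974, with *Rem2* 7th in the list of *Serpina9*. *Gpx6* was closest to *Nmnat3* (0.953), *Mrpl3*, *Rcn1*, *Pnp2* and *Nub1* (0.926), and correlated at 0.81 with *Serpina9* and 0.79 with *Rem2*. *Tnmd* was closest to *Hyou1* (0.930), *Cntn1*, *Ranbp2*, *Cct6a* and *Usp9x* (0.918), and correlated at -0.42 with *Serpina9*, -0.43 with *Rem2* and -0.25 with *Gpx6*. These values describe 10 points that share cohorts and include the Syn groups that chose the genes, and they carry no test. Over the 40 libraries part of this order changed. *Mrpl3* then ranked 219 for *Gpx6*, whose closest genes were *Lamb1* (0.868) and *Nmnat3* (0.862), and *Psmc1* ranked 56 for *Rem2*. For *Tnmd* the closest were *Etl4* (0.796), *Ipo5* (0.793) and *Sel1l* (0.772), while *Cntn1* ranked 5, *Cct6a* 45, *Usp9x* 58, *Hyou1* 80 and *Ranbp2* 238.

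The genotype comparisons ask whether loss of SAPAP3 altered the 4 genes, and none was called in any of them. In the input, *Serpina9* differed between KO and WT by a log2(FC) of -0.57 (95% interval -0.97 to -0.16, adjusted p = 0.73) and *Gpx6* by -0.60 (-1.13 to -0.07, adjusted p = 0.73). *Rem2* differed by -0.22 (-0.57 to 0.13) and *Tnmd* by 0.32 (-0.51 to 1.14). *Dlgap3* was the only gene called among 15591 (0.00641%). The intervals of *Serpina9* and *Gpx6* lay below 0 before adjustment, and without both libraries of WT mouse 1 the values were -0.32 and -0.43. Leaving out the input of WT mouse 1 also moved *Rem2* to -0.021 and *Tnmd* to 0.062. The 8 MSN markers had negative values too in the input (median -0.30, range -0.49 to -0.14) and in the IP (median -0.28, range -0.48 to -0.13), with 0 called, and their part in the values of *Serpina9* was not tested. In the IP, the values were -0.48 (-0.95 to -0.01) for *Serpina9*, -0.23 (-0.62 to 0.15) for *Rem2*, -0.57 (-1.33 to 0.18) for *Gpx6* and 0.44 (-0.44 to 1.31) for *Tnmd*, all with adjusted p = 1.0, where 4 of 15198 genes were called (0.0263%, with 0.00658% higher and 0.0197% lower). Leaving out 1 IP library moved these values widely. Without WT mouse 1 they were -0.28 for *Serpina9*, -0.087 for *Rem2* and 0.12 for *Tnmd*, and without KO mouse 1 they were -0.65 for *Serpina9*, -0.34 for *Rem2* and -0.96 for *Gpx6*. *Tnmd* reached 0.72 without WT mouse 4, and *Gpx6* was at -0.41 without KO mouse 4.

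IP over input was compared between genotypes by an interaction term, which gives 0.09 (95% interval -0.54 to 0.72) for *Serpina9*, -0.01 (-0.53 to 0.51) for *Rem2*, 0.03 (-0.92 to 0.98) for *Gpx6* and 0.12 (-1.15 to 1.39) for *Tnmd*. The adjusted p was 1.0 for each. No gene of 16059 was called (0%) by edgeR, 203 had an unadjusted p under 0.05, and DESeq2 called 1. The widest interval, that of *Tnmd*, still holds differences beyond 1 in either direction.

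In bulk striatum the SD between libraries was larger in WT than in KO for each of the 4 genes. It was 15.9 and 5.48 CPM for *Serpina9* and 17.0 and 4.11 CPM for *Rem2*. For *Gpx6* it was 2.07 and 0.997 CPM, and for *Tnmd* 0.396 and 0.107 CPM. *Xist* was above 1 CPM in 2 of 4 WT and 0 of 4 KO bulk libraries, and the part of sex in the bulk values was not tested. *Serpina9* in KO was at 23.8, 34.0, 25.3 and 34.0 CPM and *Rem2* at 33.8, 40.1, 35.5 and 42.7 CPM, all inside the span of the 4 WT libraries given above. *Gpx6* was at 2.06, 4.55, 6.29 and 2.05 CPM in WT and 1.47, 3.05, 1.94 and 3.64 CPM in KO. *Tnmd* was at 1.34, 0.745, 0.384 and 0.879 CPM in WT and 0.530, 0.646, 0.750 and 0.760 CPM in KO. WT replicate 3 had the most *Serpina9*, *Rem2* and *Gpx6* and the least *Tnmd*, as did mouse 1 of the SAPAP3 WT inputs. The log2(FC) of KO over WT was -0.44 for *Serpina9*, -0.15 for *Rem2*, -0.59 for *Gpx6* and -0.36 for *Tnmd*, with adjusted p of 0.98 or above. Without WT replicate 3 the values were -0.18, 0.094, -0.21 and -0.59 in that order. *Tnmd* was at -0.019 without WT replicate 1, *Serpina9* and *Rem2* were at -0.63 and -0.31 without WT replicate 4, and *Gpx6* was at -0.80 without KO replicate 4. No gene of 16020 was called (0%) by edgeR, 792 had an unadjusted p under 0.05, and DESeq2 called 17.

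**Figure D5:**
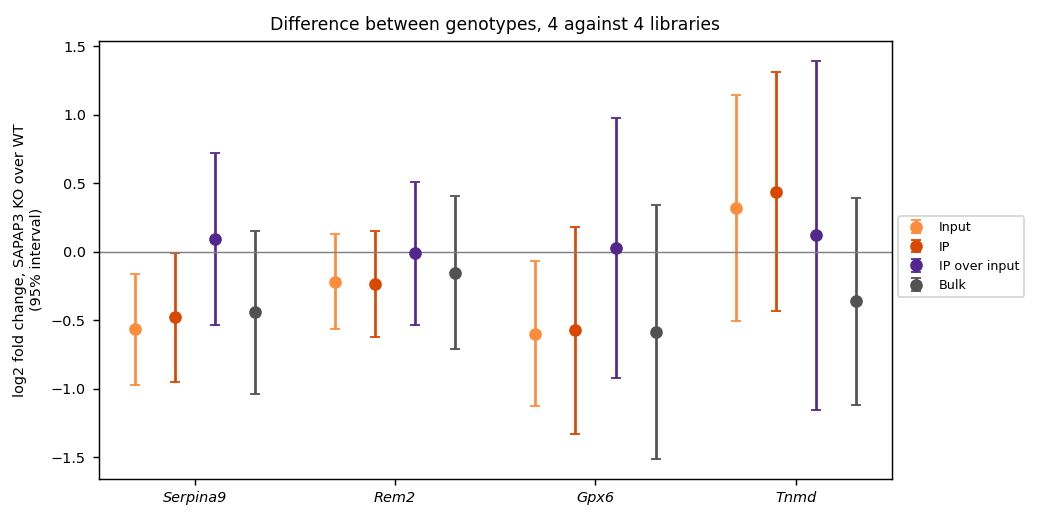
log2(FC) of SAPAP3 KO over WT with 95% intervals (y axis) for the 4 genes in input, IP, IP over input and bulk. Most intervals hold 0, those of *Serpina9* in input and IP and of *Gpx6* in input lie below it before adjustment, and no gene of the 4 was called (adjusted p of 0.73 or above).

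The relatives of each gene were described beside it. Of 23 other clade A serpins in the table, 4 were expressed enough to be tested, all of the Serpina3 group. *Serpina3n*, a serpin of reactive astrocytes, was called higher in the Control IP (log2(FC) 2.76, adjusted p = 2.4e-05), in the WT (2.84) and in the KO (3.15) IP of the SAPAP3 cohort, and was at 0.81 in the Syn IP. *Serpina3i* was called higher in the same 3 IPs (1.86 to 2.86), whereas *Serpina3g* was called lower in them (-3.60 to -2.67) and was at -3.69 in the Syn IP. Of all genes, 13.4%, 10.9% and 12.3% were called higher in the Control, SAPAP3 WT and SAPAP3 KO IPs, and 13.5%, 12.1% and 11.5% lower. The genes next to *Serpina9* on chromosome 12, *Serpina11* at 6.65 kb and *Serpina12* at 15.1 kb, had at most 3 reads in any Syn or Control library.

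Of the other RGK genes, *Gem* was called higher in the Control IP (2.08, adjusted p = 5.6e-09) and in both SAPAP3 IPs (1.56 in WT and 1.67 in KO), and was at -0.34 in the Syn IP. *Rem1* was called lower in the Control IP (-1.98) and was at -1.32 in the Syn IP, and *Rrad* at -0.78 and -0.59 was not called. In the Control and SAPAP3 IPs 10.9% to 13.4% of all genes were called higher and 11.5% to 13.5% lower. Of 8 calcium channel subunit genes, 0 were called in the Control IP (median -0.52, range -0.93 to -0.23), beside 26.9% of all genes called in either direction, and *Cacnb4*, at 416 CPM in the Syn input, was called lower in both SAPAP3 IPs (-1.11 in WT and -1.15 in KO). These 8 ran from -0.48 to 0.47 in the Syn IP. Of 8 activity-regulated genes, which bear on *Rem2*, *Bdnf* was called higher in the Control IP (1.64, adjusted p = 1.6e-05) and lower in the KO IP (-1.48), and *Fos* higher in the KO IP (1.06). Their median in the Syn IP was 0.40 and their highest value 0.69. Among the neighbours of *Rem2*, *Lrp10* at 5.81 kb had a log2(FC) of -0.35 in Syn and 1.14 in Control, and *Mmp14* at 33.6 kb had -1.47 and 1.51.

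Of 7 other glutathione peroxidase genes 5 were tested, and *Gpx8*, an enzyme of the endoplasmic reticulum, was called higher in the Control IP (1.88, adjusted p = 1.8e-08) and both SAPAP3 IPs (2.04 in WT and 2.26 in KO). *Gpx3* was called in the Control IP alone of the 3 (1.26). In the Syn IP the 5 ran from -0.46 to 0.62, and *Gpx1*, at 75.5 CPM in the Syn input, was at 0.62. *Gclm*, which encodes the modifier subunit of the enzyme that starts glutathione synthesis, was called higher in all 3 tested IPs (1.04 to 1.37). Of all genes, 10.9% to 13.4% were called higher in them. *Gpx5*, 2.74 kb from *Gpx6*, had 0 reads in all Syn and Control libraries. A count of 0 in 1 library taken alone allows up to 3 expected reads, and no joint bound over these libraries was computed.

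Of the BRICHOS genes, *Itm2b* was called higher in the Control IP (1.16) and both SAPAP3 IPs (1.03 and 1.14), *Lect1*, the closest relative of *Tnmd*, in both SAPAP3 IPs (1.24 in WT and 1.56 in KO) with 0.07 in the Control IP, and *Itm2a* was called lower in the Control IP (-1.64). The shares of all genes were 10.9% to 13.4% called higher in these IPs and 13.5% called lower in the Control IP. In the Syn IP *Lect1* was at -0.86 and *Itm2c* at 0.60. Of 8 tendon and fibroblast genes tested, *Col1a1*, *Dcn*, *Fmod* and *Lum* were called lower in all 3 tested IPs (11.5% to 13.5% of all genes), and *Thbs4*, a matrix protein also made by astrocytes, was called higher in all 3 (2.53 to 3.21). Among these 8, 5 were called lower in the Syn IP, beside 15.8% of all genes, with a median of -2.79 and a highest value of 0.27. *Scx*, the tendon transcription factor, was at 0.89 CPM in the Syn input and 0.93 CPM in the Syn IP, and *Kera* was at 0.00 CPM in both. *Tspan6*, the nearest gene to *Tnmd* at 25.5 kb, had a log2(FC) of -0.05 in Syn and 1.47 in Control.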

How the data were processed

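RNA was measured in 40 libraries of mouse striatum. The authors aligned reads to mm10 (STAR and HTSeq are named in the submitters' processing notes) and deposited raw counts per gene symbol, not normalized, 1 column per library. The annotation, strand setting and handling of multiply aligned reads are not given in the sources used here, and the labels and the paper name different kits and sequencers, which could alter low counts. All 40 columns were used. Symbols listed more than once (2) are not among the genes reported.

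CPM were computed here with total counts, and FPKM with merged RefSeq exon lengths (GRCm38.p6). Fits used R 4.3.3 and edgeR 4.0.16 (filterByExpr, TMM, glmQLFit and glmQLFTest, defaults) across the whole table, with only the compared groups in a fit and Benjamini-Hochberg adjustment over all genes tested. IP comparisons had the study's limits (adjusted p under 0.05, log2(FC) above 1 or below -1) and genotype comparisons no fold limit. The study itself used limma-voom, which here (limma 3.58.1) was an alternative, as were DESeq2 1.42.0, ribosomal protein scaling (75 genes, without Rpl22), no filter, the animal as a block, Xist above 1 CPM as a covariate and leaving out each library. The 4 genes and all lists were chosen with earlier results of these data known. The genes named are the 4, the next in rank, the most alike in pattern, their neighbours within 100 kb, and list members with the highest level in the Syn input or past the limits. A few genes that the rule or a list would name are not reported here, and the medium spiny neuron sums and counts are without one of them.

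IP and input libraries were paired by animal number, except in Syn, where the labels number the animals of the 2 fractions differently and the number in the sample title was used. Deviations from group means correlated at 0.480 to 0.792 between libraries of the same number in Syn, 0.248 to 0.585 in Control, 0.534 to 0.686 in SAPAP3 WT and 0.434 to 0.625 in KO (11762 genes with at least 5 CPM). Between an IP and an input of different numbers the range was -0.454 to 0.163 in Syn and -0.529 to 0.095 in Control. It was -0.395 to 0.121 in SAPAP3 WT and -0.407 to 0.313 in KO. Scripts were tested on simulated data. Other tools were Python 3.11.15, pandas 2.3.3, numpy 2.4.6, minimap2 2.31 and matplotlib 3.10.9.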

Additional observations from a re-analysis of the deposited data

Results flagged for a closer look

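In 2 of the 40 sets of 4 libraries tested (4 genes in 10 groups), 1 library stood apart by Dixon's test, about what chance gives at 1 in 20 groups. *Serpina9* was at 55.9 CPM in the SAPAP3 WT input of mouse 1, with the others at 30.2 to 32.3 CPM, and *Gpx6* was at 7.34 CPM in Syn IP replicate 2, with the others at 4.88 to 5.03 CPM.

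IP over own input went one way in every pair of one cohort and the opposite way in every pair of another, and these differences were not tested, since the Syn cohort chose the genes. On the log2 CPM scale the mean for *Serpina9* was 0.94 in Syn against -1.09 in Control (a difference of 2.03), -0.63 in SAPAP3 WT (1.58) and -0.56 in SAPAP3 KO (1.50). For *Rem2* it was 0.93 against -1.08 (2.01), -0.45 (1.37) and -0.47 (1.40). For *Gpx6* it was 1.29 in Syn against -0.60 in Control (1.89).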

How the results depend on the processing

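Scaling to ribosomal protein genes moved the results most. It gave log2(FC) of 1.59, 1.58, 1.91 and 1.82 for *Serpina9*, *Rem2*, *Gpx6* and *Tnmd* in Syn, of 0.33, 0.33 and 0.81 for the first 3 in Control, of 0.28, 0.45, 1.09 and 1.77 for the 4 in SAPAP3 WT, and of 0.26, 0.34 and 1.04 for the first 3 in SAPAP3 KO. *Gpx6* then passed both limits in SAPAP3 WT and KO, and *Tnmd* in WT. Calls became 9878 of 15476 genes in Control (9218 higher and 660 lower, against 2072 and 2085) and 5697 of 15587 in SAPAP3 WT (4784 and 913, against 1703 and 1887). In Syn 1102 of 16198 were then called higher and 1753 lower, and in SAPAP3 KO 4191 and 877 of 15583.

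The replicate block called *Tnmd* in SAPAP3 WT (1.08) and changed no other call of the 4 genes. Leaving out WT mouse 1, an alternative chosen after seeing the data, also called it (1.18) and left 2 genes called between genotypes in IP. The interaction, near 0 in each gene, changed sign for *Rem2* with DESeq2 (0.00903), for *Serpina9* with ribosomal protein scaling (-0.0153), and for *Gpx6* with ribosomal protein scaling (-0.0564), limma-voom (-0.0532), the replicate block (-0.0163) and without WT mouse 1 (-0.0209). DESeq2 called 1 gene for the interaction, 8 in input, 8 in IP and 17 in bulk, none of them among the 4. TMM library sizes moved the Control input of *Serpina9*, *Rem2* and *Gpx6* to 58.4, 65.3 and 5.66 CPM, and the Control IP of *Rem2* and *Gpx6* to 38.0 and 4.61 CPM. With these sizes the Syn IP of *Serpina9*, *Rem2* and *Gpx6* was at 69.2, 72.0 and 6.03 CPM. That is above the Control input, the reverse of their order by library totals.

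Over single libraries left out, log2(FC) in Syn ran from 1.07 to 1.25 for *Serpina9* and from 1.07 to 1.21 for *Rem2*. *Tnmd* ran from 0.89 to 1.31 in Control and 0.79 to 1.39 in SAPAP3 WT. The interaction ran from -0.15 to 0.27 for *Serpina9*, -0.21 to 0.12 for *Rem2*, -0.35 to 0.21 for *Gpx6* and -0.20 to 0.41 for *Tnmd*. *Rem2* in bulk ran from -0.31 to 0.094. Calls between genotypes ran from 0 to 1 in input, 0 to 3 in IP and 0 to 1 in bulk. No filter changed no call of the 4 genes, nor did Xist as a covariate, which was fitted for the input and IP genotype comparisons only. With 3 to 41 reads of *Tnmd* in each Syn or Control input library, its ratios are the least precise.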
